A study of Mus musculus with 18 samples.

Results

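The nuclear-encoded subunits of the respiratory chain and ATP synthase were followed in MIN6 cells, a mouse insulinoma line that keeps many features of pancreatic beta cells. Members were taken by gene symbol as the RefSeq mRNA records give it. They are the Ndufa, Ndufb, Ndufc, Ndufs and Ndufv genes of complex I, Sdha to Sdhd of complex II, the Uqcr genes and Cyc1 of complex III, the Cox4 to Cox8 genes of complex IV and the Atp5 genes of complex V, without assembly factors. The tables listed 85 of these genes, and 80 had at least 1 read in each of 18 libraries, out of 6929 genes of any kind that met the same condition. The 80 split into 38 genes of complex I, 4 of complex II, 9 of complex III, 12 of complex IV and 17 of complex V. Complexes were assigned by symbol, so Ndufa4, a protein found in complex IV, is counted in complex I throughout.

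Control cells received DMSO for 18 h. Treated cells were exposed to 200 µM cyclopiazonic acid (CPA), either for 1 h, which the labels name CPA1, or for 18 h, named CPA18. This compound blocks the SERCA calcium pump of the endoplasmic reticulum (ER) and so induces ER stress, and the design asks how expression differs between an acute and a chronic exposure. Each treatment was sampled in 3 replicates, which the labels call batches and which are called experiments 1, 2 and 3 here. Each sample was read as mRNA-seq of poly(A) RNA and as Ribo-seq, the sequencing of ribosome-protected fragments (footprints). MIN6 is a tumour line in culture, and no primary islet was measured here.

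Library totals ran from 520960 to 4755030 reads in mRNA-seq and from 168129 to 1083297 in Ribo-seq. The experiment 1 mRNA-seq libraries stood apart, with 0.768 to 0.891% of their reads on the 80 members against 1.33 to 2.55% in the other 6 mRNA-seq libraries. For the control of experiment 2, the titles and descriptions of both libraries name opposite assays. The titles were followed, since the table headings match them, and the correlation of log levels was 0.815 to 0.938 with the other mRNA-seq controls against 0.729 to 0.747 with Ribo-seq controls. Counts without that control stand beside the results below. All 7 beta cell markers were read in every library, whereas Ptprc (immune cells), Col3a1 (fibroblasts) and Amy2a1 (acinar cells) had no mRNA-seq read. Gcg, the glucagon gene of alpha cells, was the exception at 39.7 to 107.9 RPKM in control mRNA-seq, and the other 6 markers of other cells reached at most 7.63 RPKM there. In bulk libraries, fewer cells of a kind and less RNA per cell cannot be told apart.

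Complexes I and II take electrons from NADH and succinate, complex III passes them to cytochrome c, and complex IV hands them to oxygen. The proton gradient that complexes I, III and IV build drives ATP synthase, complex V. In beta cells the ATP made from glucose in this way closes potassium channels in the plasma membrane and starts insulin secretion. The proteins followed here are made on cytosolic ribosomes and imported into mitochondria, and the few subunits encoded by mitochondrial DNA were not analysed here.

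The genes of the ATP synthase c subunit differed from each other after CPA, so upstream sequence is shown for a pair of them. Atp5g1, Atp5g2 and Atp5g3 encode the same mature membrane protein behind different import peptides. After 18 h of CPA, Atp5g1 rose in both assays, Atp5g2 rose in footprints and Atp5g3 did not rise in either, with the values further on. The stretches below are the bases before the RefSeq start (GRCm38.p6, minus strand, 5′ to 3′), limited to bases outside the annotated exons of the gene. Capitals mark CCAAT on either strand in Atp5g1 and GCGCATGCG, the site of NRF-1, on either strand in Atp5g2.
Atp5g1, chr11:96075695-96075881: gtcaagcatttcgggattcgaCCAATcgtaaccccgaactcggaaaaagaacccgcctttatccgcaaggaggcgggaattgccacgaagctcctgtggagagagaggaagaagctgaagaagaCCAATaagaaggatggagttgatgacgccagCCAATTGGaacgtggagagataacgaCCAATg
Atp5g2, chr15:102671048-102671297: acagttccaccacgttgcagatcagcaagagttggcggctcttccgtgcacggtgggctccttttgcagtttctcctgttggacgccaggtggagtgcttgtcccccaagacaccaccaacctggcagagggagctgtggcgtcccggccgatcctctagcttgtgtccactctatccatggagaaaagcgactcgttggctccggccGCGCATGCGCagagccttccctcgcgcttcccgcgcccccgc

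The Atp5g1 stretch held CCAAT 5 times when both strands were read, with 1 match on each strand overlapping at CCAATTGG. At least 1 CCAAT occurred in 33.8% of 32851 RefSeq promoters read over the 250 bases before the start, and at least 5 occurred in 0.213% of them. The window of Atp5g3, which overlaps annotated exons and is not printed, held 1 CCAAT and an E-box. An E-box was also found for Atp5g1 over 250 bases, but outside the printed stretch, which holds none. Over 250 bases both genes thus held CCAAT and an E-box, with 5 CCAAT in Atp5g1 and 1 in Atp5g3. Whether these words bear on the different changes of the genes was not tested. The Atp5g2 stretch held no CCAAT, and its NRF-1 word, read on both strands of the palindrome GCGCATGCGC, occurs in 1.45% of promoters. Promoter windows were found for 65 of the members (70 windows). Of those windows, 40% held CCAAT, 8.57% the NRF-1 word, 10% the E-box CACGTG against 6.02% of all promoters, 5.71% the cAMP response element TGACGTCA against 1.55%, and 4.29% the ETS word CCGGAAGT against 2.88%. The C/EBP-ATF word TGATGNAA and the unfolded protein response word TGACGTGG were in 0% of the member windows, against 3.45% and 0.563% of all promoters. These are matches of letters in short windows and not measured binding sites.

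In control cells the subunits were far above the middle of the transcriptome. The median mRNA-seq level of the 80 members was 169.6 RPKM (reads scaled to transcript length and library total), against 9.42 RPKM over all 6929 genes. Medians by complex were 118.5 RPKM for complex I, 101.2 for complex II, 146.6 for complex III, 295.4 for complex IV and 303.1 for complex V. The highest mRNA-seq means were Ndufa1 in complex I (558 RPKM), Sdhd, a membrane anchor of complex II (152 RPKM), Uqcr11 in complex III (549 RPKM), Cox8a in complex IV (1165 RPKM) and Atp5e, the epsilon subunit of complex V (1219 RPKM). The lowest was Ndufs1, the large iron-sulfur subunit of complex I, at 12.6 ± 5.78 RPKM (SD, n = 3).

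Footprints gave a similar ladder, with a member median of 216.3 RPKM against 11.4 RPKM over all genes. Complex V again had the highest median footprint level (416 RPKM) and complex II the lowest (104.4 RPKM). Atp5b, the catalytic beta subunit, had the highest footprint level of any member (1335, 1179 and 1185 RPKM in control experiments 1, 2 and 3). Members took up 1.65 ± 0.67% of mRNA-seq reads and 1.87 ± 0.043% of Ribo-seq reads in control cells (SD, n = 3). The share of mRNA-seq reads thus varied much more between experiments than the share of footprints.

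Ribosome occupancy, the ratio of footprint to mRNA RPKM, was spread widely among members in control cells. Both RPKM values use the length of the whole transcript. For Ins2 the paper found footprints enriched in the coding region and mRNA reads spread over the gene. The coding share of each transcript was not taken into account, so the ranking of genes below may depend on it. On the log2 scale and relative to the median gene, Ndufs1 had the highest occupancy at 1.76 ± 0.57 (SD, n = 3). The core proteins of complex III, Uqcrc2 (0.96 ± 0.19), and its iron-sulfur protein Uqcrfs1 (0.87 ± 0.27) were also high, as was Uqcrb (0.91 ± 0.34). The lowest were Cox7a2l, a factor that joins complexes III and IV into supercomplexes, at -1.47 ± 0.43, and Uqcr11 at -1.15 ± 0.69, Ndufb9 at -1.12 ± 0.99 and Uqcrh at -0.91 ± 0.08. The values of these 8 genes stayed on the same side of the median gene in all 3 experiments. The median log2 ratio of the 80 members, not set against the median gene, was 1.17, -0.20 and -0.16 in experiments 1, 2 and 3, against 0.49, 0.18 and 0.25 for all genes, so the members lay above the typical gene in experiment 1 and below it in the others.

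After 18 h of CPA, 15 of 80 members were higher in mRNA-seq and 1 was lower (edgeR quasi-likelihood test with the experiment as a block, Benjamini-Hochberg adjusted over all genes, threshold 0.05). Of all genes tested, 27% were higher and 7.89% lower in that comparison, and the member shares were 18.8% and 1.25%. The median log2 fold change was 0.34 for members and 0.38 for all genes. By complex, 8 of 38 complex I genes were higher, 1 of 4 in complex II, 4 of 9 in complex III, 1 of 12 in complex IV and 1 of 17 in complex V, and the lower gene was in complex IV. The 8 of complex I were the core subunit Ndufs3 and the accessory subunits Ndufa2, Ndufa5, Ndufa10, Ndufa12, Ndufb6, Ndufs4 and Ndufs5, with log2 fold changes between 0.71 and 0.93.

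**Figure D1:**
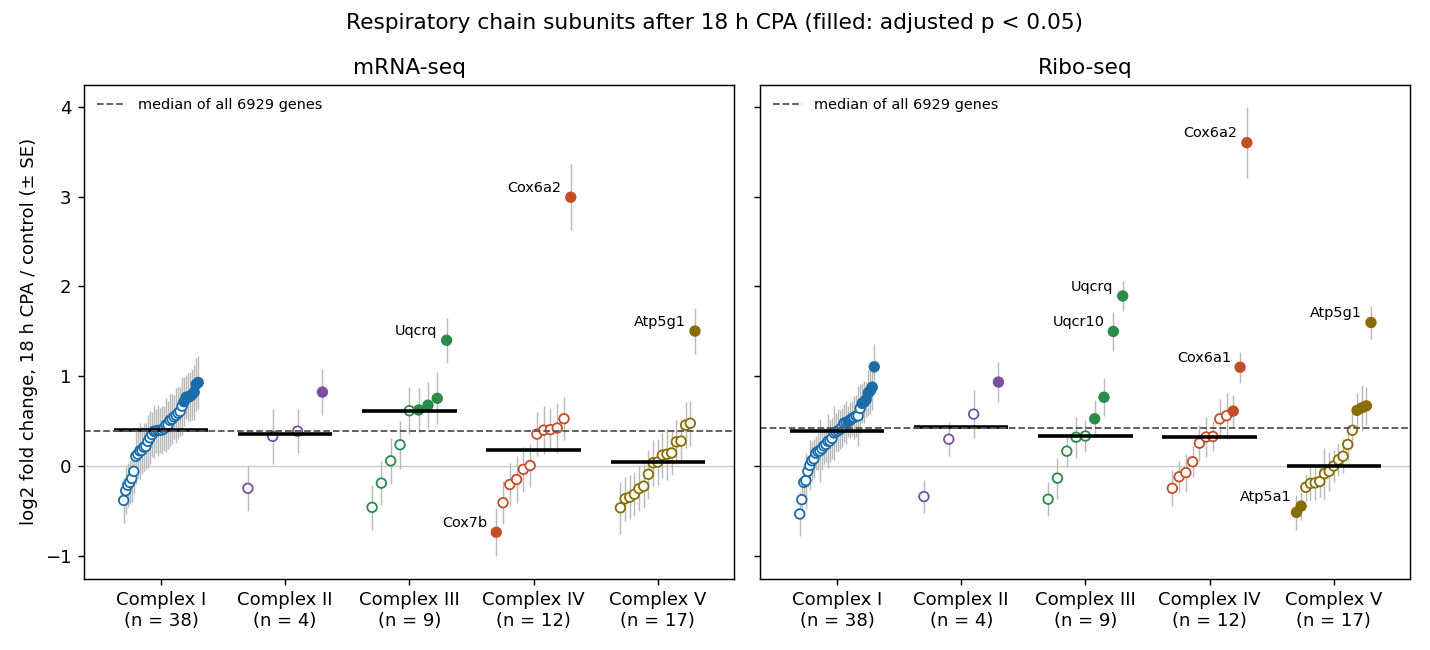
Log2 fold change of each of the 80 subunits after 18 h of CPA against control (points, ± SE), by complex, for mRNA-seq (left) and Ribo-seq (right). Filled points passed an adjusted p of 0.05, black bars are the median of the complex and the dashed line is the median of all 6929 genes. Cox6a2, Uqcrq and Atp5g1 sit above the rest of their complexes in both assays, and the complex V medians (0.04 and -0.0023) lie under the line.

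Reads were scaled here to library totals, as RPKM values are, and that choice decides the direction for many members. Ins1, Ins2 and Lars2 took 51.7, 28.1 and 32.6% of control mRNA-seq reads in experiments 1, 2 and 3 but 56.3, 10.4 and 9.81% after 18 h. In Ribo-seq the same 3 genes took 18.4 to 21.2% of control reads and 7.72 to 9.65% after 18 h. Under TMM scaling, which assumes that most genes do not change, the median of all genes moved to 0.0085 in mRNA-seq and 0.06 in Ribo-seq, from 0.38 and 0.42. With that scaling 5 members were higher and 18 lower in mRNA-seq, where 16.3% of all genes were higher and 16% lower. The member median was then -0.02, and medians by complex were 0.04 for complex I, -0.0042 for II, 0.23 for III, -0.16 for IV and -0.30 for V. Complex V had the lowest median under both scalings. A scaling factor shifts all genes of a library together, so this order could hardly change.

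Cox6a2 showed the largest change of any member. It encodes the heart and muscle form of a small complex IV subunit and lies at chr7:128205435-128206366 (GRCm38.p6). Its mRNA-seq level was 5.66, 10.8 and 23.9 RPKM in control experiments 1, 2 and 3 (2, 12 and 39 reads), 9.89, 8.77 and 26.5 RPKM after 1 h, and 35.6, 157 and 126 RPKM after 18 h. Each 18 h library was above every control and 1 h library. The log2 fold change at 18 h was 2.99 ± 0.37 (SE), or 7.96-fold (adjusted p = 4.4e-13, edgeR), and 2.52 under TMM scaling. A stretch of 10.3% of its transcript also matched Itgad.

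In footprints Cox6a2 read 12.6, 7.93 and 13.6 RPKM in control, 14.2, 7.51 and 31.3 RPKM after 1 h and 167, 196 and 95.9 RPKM after 18 h. These values rest on few reads. They were 7, 5 and 10 in control, 5, 2 and 10 after 1 h and 19, 27 and 36 after 18 h. The 18 h libraries again stood clear of the other 6. The log2 fold change was 3.60 ± 0.39 (SE), or 12.1-fold (adjusted p = 2.36e-13, edgeR), and 3.23 under TMM scaling. Its counterpart Cox6a1, the form found in most tissues and singled out here after its values were seen, stayed the more abundant of the pair. Cox6a1 mRNA-seq levels were 352, 853 and 869 RPKM in control and 439, 1376 and 1255 RPKM after 18 h, groups that overlapped, with a log2 difference of 0.52 ± 0.24 (SE, adjusted p = 0.0777, edgeR). Its footprints did not overlap, at 494, 567 and 488 RPKM in control and 934, 1407 and 1025 RPKM after 18 h, and rose by 1.10 ± 0.17 on the log2 scale (adjusted p = 1.58e-07, edgeR).

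Atp5g1 (chr11:96072793-96075694) was the complex V gene that rose in mRNA-seq. Its levels were 88.7, 202.5 and 242.9 RPKM in control, 82.2, 149 and 217.5 RPKM after 1 h and 260.1, 624 and 614 RPKM after 18 h. The experiment 1 library was the lowest of its group each time, and even so the 18 h values lay above all the others. The log2 fold change was 1.50 ± 0.25 (SE; adjusted p = 2.2e-07, edgeR), 1.14 under TMM scaling. In footprints the levels were 234, 204 and 296 RPKM in control, 202, 178 and 249 RPKM after 1 h and 772, 743.5 and 709.5 RPKM after 18 h, with no overlap and little spread at 18 h. The footprint change was 1.60 ± 0.18 (SE; adjusted p = 1.22e-12, edgeR), or 3.03-fold.

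The other c subunit genes behaved differently. Atp5g2 mRNA-seq levels were 86.0, 377 and 419 RPKM in control and 157, 525 and 498 RPKM after 18 h, a log2 difference of 0.47 ± 0.25 (SE) that did not pass the test (adjusted p = 0.130, edgeR). Its footprints went from 282, 327.5 and 297 RPKM to 515, 472 and 421 RPKM without overlap and rose by 0.62 ± 0.19 (adjusted p = 0.00914, edgeR), but only 0.24 remained under TMM scaling (adjusted p = 0.378). Atp5g3 was the most abundant of the 3 in control cells, at 286, 607 and 521 RPKM in mRNA-seq and 369.5, 432 and 475 RPKM in footprints. After 18 h its mRNA-seq levels were 195, 583 and 474 RPKM and its footprints 461, 319 and 362 RPKM, overlapping the controls in both. The Atp5g3 log2 differences were -0.23 ± 0.24 and -0.19 ± 0.19 (SE), and under TMM scaling they were -0.56 in each assay with adjusted p of 0.00586 and 0.0175. After 18 h the mean footprint level of Atp5g1 (742 RPKM) was above that of Atp5g3 (381 RPKM), the reverse of the control order (245 against 425.5 RPKM).

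Uqcrq (chr11:53427922-53430831), a small subunit of complex III near the ubiquinone site, was another gene that kept a rise under every scaling. Its mRNA-seq levels were 139, 292 and 311 RPKM in control, 76.5, 173 and 310.4 RPKM after 1 h and 273, 933 and 866 RPKM after 18 h. Within each experiment the 18 h level was the highest, although the experiment 1 value at 18 h fell below the controls of the other experiments. The log2 fold change was 1.40 ± 0.25 (SE; adjusted p = 1.15e-06, edgeR), 1.07 under TMM scaling. Footprints rose from 198, 215 and 248 RPKM to 676, 960.1 and 817 RPKM, by 1.89 ± 0.17 on the log2 scale (adjusted p = 1.42e-17, edgeR), which is 3.71-fold. Other complex III genes that rose in mRNA-seq were the core proteins Uqcrc1 (0.62) and Uqcrc2 (0.68) and Uqcrb (0.75 on the log2 scale). None of those 3 passed under TMM scaling, with log2 values of 0.25, 0.34 and 0.39.

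**Figure D2:**
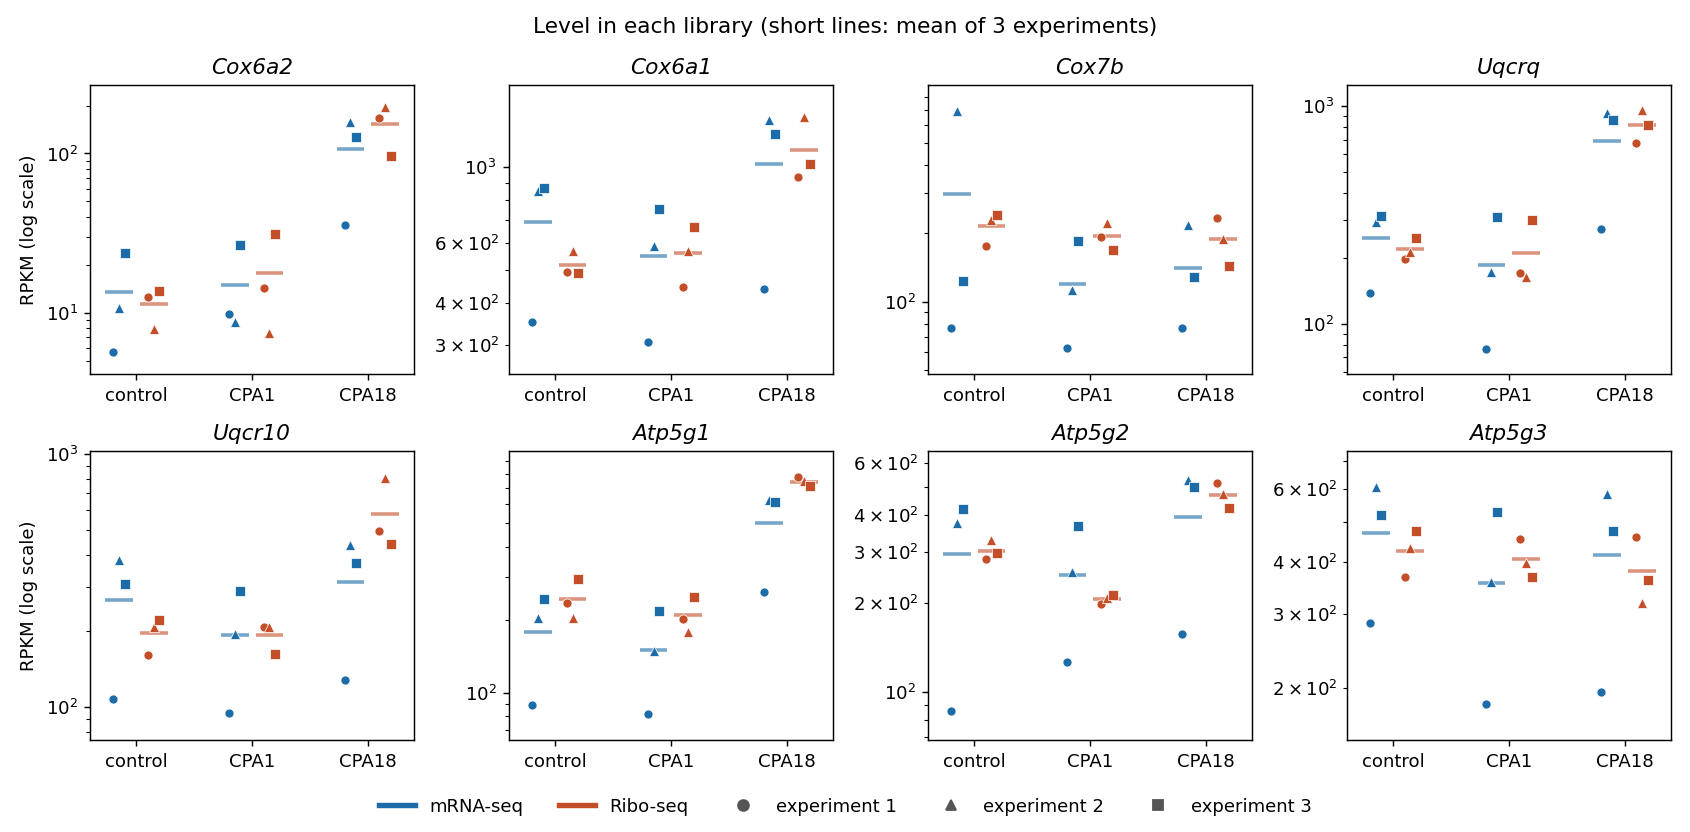
RPKM (log axis) of 8 subunits in each library by treatment, with mRNA-seq in blue, Ribo-seq in orange, a symbol for each experiment and short lines at the mean of 3 experiments. The 18 h libraries of Cox6a2 and Atp5g1 lie above the other treatments in both assays, those of Uqcr10 do so in footprints but not in mRNA-seq, and the Cox7b control of experiment 2 (693 RPKM) stands alone.

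Cox7b, a small complex IV subunit, was the member that fell in mRNA-seq, and 1 library decided it. Its control levels were 76.7, 693 and 124 RPKM, those after 1 h were 62.2, 112 and 185.5 RPKM, and those after 18 h were 76.7, 217.5 and 128 RPKM. The high value was the control of experiment 2, and the groups overlapped. The log2 fold change of -0.74 ± 0.27 (SE; adjusted p = 0.0204, edgeR) became 0.25 without that control (adjusted p = 0.647). Its footprints were 175, 228 and 240 RPKM in control and 233, 188 and 143 RPKM after 18 h, a log2 difference of -0.25 ± 0.20 (adjusted p = 0.357, edgeR).

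In complex II the iron-sulfur subunit Sdhb parted from the others. Sdhb mRNA-seq levels were 73.7, 151 and 167.5 RPKM in control and 107, 295.5 and 310.4 RPKM after 18 h, higher within each experiment, and rose by 0.82 ± 0.25 on the log2 scale (adjusted p = 0.00661, edgeR). Footprints of Sdhb were 82.5, 79.7 and 116.5 RPKM in control and 114, 167 and 241 RPKM after 18 h, overlapping by a single library, and rose by 0.93 ± 0.22 (adjusted p = 0.000514, edgeR). Under TMM scaling Sdhb still passed in both assays, at 0.46 and 0.57. The flavoprotein Sdha, which holds the succinate site, differed by 0.39 ± 0.25 in mRNA-seq (adjusted p = 0.218, edgeR) and by -0.34 ± 0.19 in footprints (adjusted p = 0.155, edgeR). The membrane anchors Sdhc (0.33 and 0.58) and Sdhd (-0.25 and 0.30 in mRNA-seq and footprints) passed in neither assay with library totals. Under TMM scaling Sdhd passed as lower in mRNA-seq (-0.59, adjusted p = 0.00451, edgeR) and Sdha passed as lower in footprints (-0.72, adjusted p = 0.00195, edgeR).

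Leaving out both control libraries of experiment 2 left 5 members higher and 0 lower in mRNA-seq (15 and 1 with them), and the 5 were Cox6a2, Atp5g1, Uqcrq, Sdhb and Ndufa5. Of all genes, 15.1% were then higher and 4.73% lower. Without the experiment as a block, 1 member was higher and 0 lower, where 1.43% of all genes were higher and 0.548% lower, and that member was Cox6a2 (adjusted p = 0.0191, edgeR). The adjusted p without the block was 0.152 for Atp5g1, 0.195 for Uqcrq and 0.384 for Sdhb. Within experiments, 43 of the 80 members were higher than their own control in all 3 experiments and 15 were lower in all 3, and of all 6929 genes 41.7% were higher and 14.4% lower in all 3.

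**Figure D3:**
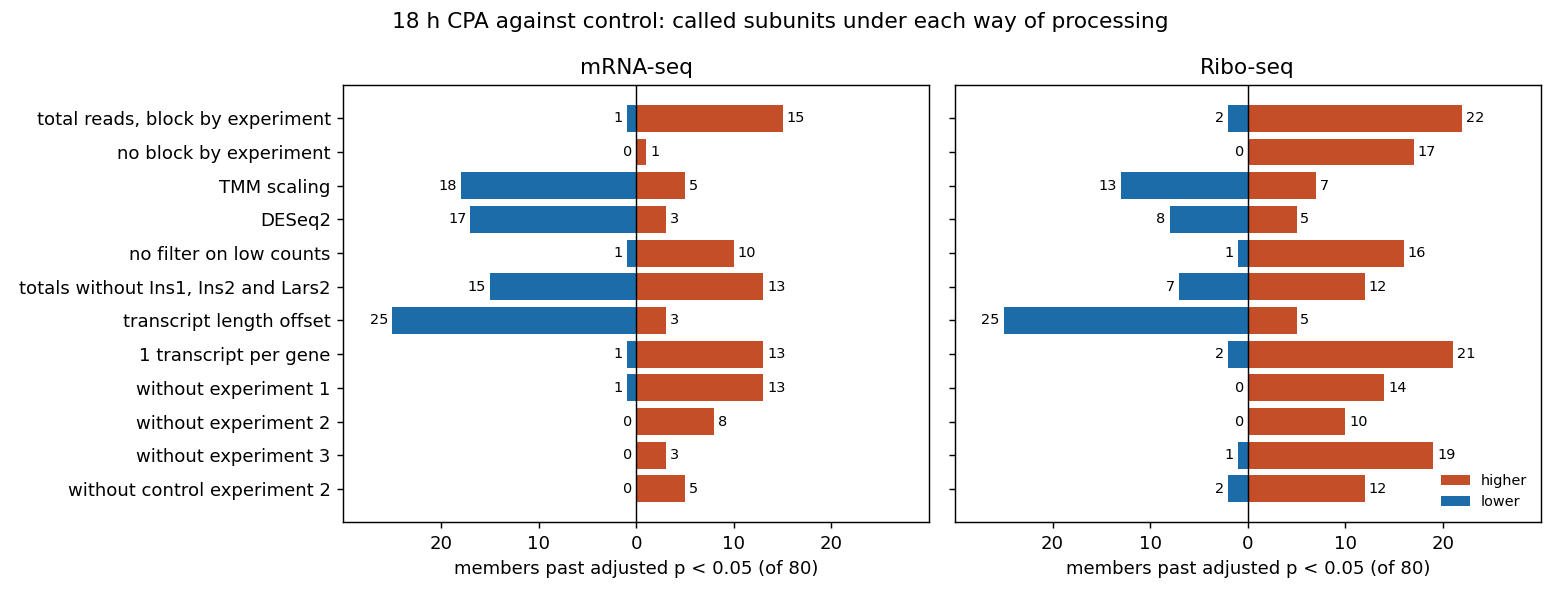
Number of the 80 subunits past an adjusted p of 0.05 after 18 h of CPA against control under each way of processing, higher to the right (orange) and lower to the left (blue). With library totals 15 and 22 members were higher, whereas a transcript length offset gave 25 lower in each assay.

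Footprints after 18 h of CPA were higher for 22 members and lower for 2, where 25.6% of all genes were higher and 6.25% lower. The median log2 fold change was 0.32 for members and 0.42 for all genes. Of these, 10 were in complex I, 1 in complex II, 4 in complex III, 3 in complex IV and 4 in complex V, and both lower genes were in complex V. In complex I the 7 core subunits gave 0 calls in edgeR with library totals (2 higher and 1 lower at an unadjusted p under 0.05) and a median of 0.06. The 31 accessory subunits gave 10 calls and a median of 0.41. Ndufa4, counted among them by its symbol though found in complex IV, was among those calls. Under TMM scaling those medians were -0.32 and 0.03. Scaling shifts all genes of a library together, so the order of the subgroups could hardly change with it. With that scaling 2 core genes passed as lower, Ndufs1 (-0.90) and Ndufv2 (-0.75). In mRNA-seq the order was the other way, with medians of 0.46 for the core and 0.39 for the accessory subunits. Under TMM scaling the mRNA-seq medians were 0.06 and 0.02. The difference between the subgroups was not tested.

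Under TMM scaling 7 members had higher and 13 had lower footprints, where 11.9% of all genes were higher and 12.2% lower. The medians by complex were then 0.0097 for complex I, 0.07 for II, -0.04 for III, -0.05 for IV and -0.38 for V, against 0.38, 0.44, 0.33, 0.32 and -0.0023 with library totals. Without the control libraries of experiment 2, 12 members were higher and 2 lower with library totals, where 17.8% of all genes were higher and 4.94% lower. Without the block 17 were higher and 0 lower with edgeR (3 lower at an unadjusted p under 0.05), where 21.4% of all genes were higher and 5.04% lower. The share of all footprints on complex III was 0.201 ± 0.0060% in control and 0.331 ± 0.038% after 18 h (SD, n = 3), whereas that of complex V was 0.753 ± 0.040% and 0.73 ± 0.036%. The complex III share does not describe each of its genes. Its median change with library totals was below that of all genes (0.33 against 0.42). Of its 9 genes 4 were called, 2 were below 0, and Uqcrq rose most (1.89).

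In all, 9 genes passed as higher in both assays at 18 h, namely Atp5g1, Cox6a2, Ndufa2, Ndufa5, Ndufs4, Ndufs5, Sdhb, Uqcrb and Uqcrq. Under TMM scaling 4 did (Atp5g1, Cox6a2, Sdhb and Uqcrq), and 5 were lower in both assays (Atp5g3, Atp5l, Atp5md, Cox6c and Ndufv3). The share of all genes called in both assays was not counted, so these counts cannot be set against it. In the single assays 27% and 25.6% of all genes were higher with library totals. Under TMM scaling 16.3% and 11.9% were higher and 16% and 12.2% lower. Ndufs4, an accessory subunit of the NADH-oxidising arm, rose by 0.93 ± 0.30 in mRNA-seq (adjusted p = 0.00876, edgeR) and by 0.88 ± 0.26 in footprints (adjusted p = 0.00498, edgeR). Ndufa5, in the same arm, rose by 0.91 ± 0.30 and 1.10 ± 0.25. Ndufa4, named for complex I but found in complex IV, rose in footprints (0.49 ± 0.17) and was at -0.22 ± 0.25 in mRNA-seq, and under TMM scaling the footprint value was 0.11 while the mRNA value passed as lower (-0.57). With library totals neither assay gave a call for the haem protein Cyc1 (0.61 ± 0.26 and 0.32 ± 0.23), the Rieske protein Uqcrfs1 (0.06 ± 0.25 and -0.37 ± 0.19) or Atp5b (0.03 ± 0.26 and -0.24 ± 0.15 in mRNA-seq and footprints). Under TMM scaling the footprints of Uqcrfs1 (-0.75, adjusted p = 0.00116, edgeR) and Atp5b (-0.62, adjusted p = 0.00278, edgeR) passed as lower.

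**Figure D4:**
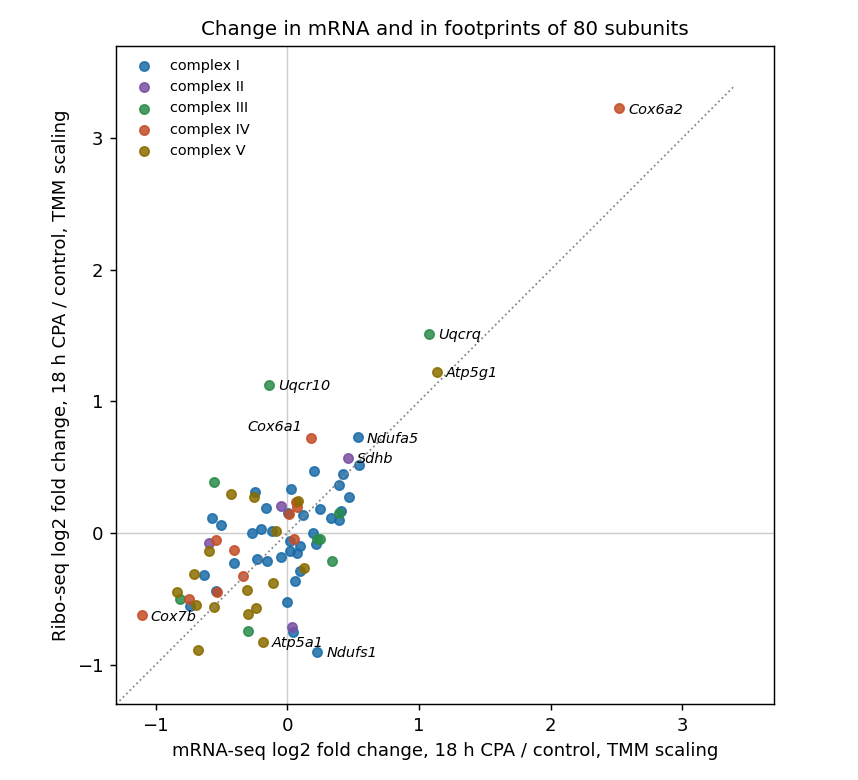
Log2 fold change after 18 h of CPA against control under TMM scaling, mRNA-seq on the x axis and Ribo-seq on the y axis, for the 80 subunits coloured by complex, with a dotted line of equal change. Cox6a2, Uqcrq and Atp5g1 lie far up along the line, Uqcr10 lies above it (-0.14 and 1.13), and most complex V genes are in the lower left.

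Uqcr10 (chr11:4701968-4704344), a small subunit of complex III singled out after its values were seen, passed as higher in footprints but not in mRNA-seq. Its mRNA-seq levels were 108, 383 and 307 RPKM in control, 95.01, 195 and 289 RPKM after 1 h and 128, 438 and 372 RPKM after 18 h. These ranges overlapped, though the 18 h level was above the control within each experiment. The log2 difference at 18 h was 0.23 ± 0.27 (SE; adjusted p = 0.518, edgeR). Its footprints were 160.3, 208 and 221 RPKM in control, 208, 208 and 163 RPKM after 1 h and 496, 806 and 440.0 RPKM after 18 h. Here the 18 h values lay above all the others, and the log2 fold change was 1.50 ± 0.22 (SE; adjusted p = 1.37e-08, edgeR), 1.13 under TMM scaling. The test of the difference between the assays is given below, as ribosome occupancy.

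Both members with lower footprints at 18 h belong to ATP synthase. Atp5a1, the alpha subunit of the catalytic head, read 735, 584 and 637 RPKM in control and 460.5, 441 and 516 RPKM after 18 h, without overlap. The fall was 0.45 ± 0.16 on the log2 scale (log2 fold change -0.45, adjusted p = 0.0188, edgeR; 0.056 without the block), and its mRNA-seq difference was 0.14 ± 0.25. Atp5md, a small subunit of the membrane part, read 742, 880.1 and 758 RPKM in control and 475.5, 624 and 547 RPKM after 18 h, also without overlap. Its log2 fold change was -0.52 ± 0.20 (adjusted p = 0.0329, edgeR), and the adjusted p was 0.152 without the control of experiment 2. Among the 5 genes of the catalytic head, 0 were higher and 1 was lower in footprints (median -0.20), and 3 were lower under TMM scaling. The 4 genes of the peripheral stalk gave 1 higher, Atp5j (0.67 ± 0.21), whose transcript shares 15.1% of its length with Gabpa. Atpif1, the inhibitor of ATP synthase and not a member, differed by -0.26 ± 0.28 in mRNA-seq and 0.58 ± 0.30 in footprints and passed in neither with library totals, but passed as lower in mRNA-seq under TMM scaling (-0.64, adjusted p = 0.0408, edgeR).

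After 1 h of CPA, 0 members passed in mRNA-seq with edgeR in either direction, where 0.505% of all genes were higher and 0.433% lower. At an unadjusted p under 0.05 there were 3, all lower (Cox7b, Ndufb7 and Uqcrq), where 286 of all 6929 genes were lower. DESeq2 also gave 0 members. The median log2 difference was -0.22 for members and -0.12 for all genes. In footprints 1 member was higher and 2 lower, where 3.75% of all genes were higher and 2.92% lower. The member median was -0.08 and that of all genes was 0.07.

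Those 3 genes moved by under 1 on the log2 scale. Uqcr11, a small subunit of complex III, read 251, 340.5 and 241 RPKM in control and 358, 519.9 and 439 RPKM after 1 h, without overlap, and rose by 0.66 ± 0.20 (adjusted p = 0.0254, edgeR). It stayed at 478, 474 and 451 RPKM after 18 h, a rise of 0.76 ± 0.21 over control (adjusted p = 0.00319, edgeR). Under TMM scaling Uqcr11 did not pass as higher in footprints at 18 h, and its mRNA-seq level passed as lower. Ndufb10, an accessory subunit of complex I, went from 250.1, 305 and 274 RPKM to 137, 188 and 179 RPKM, a log2 fold change of -0.72 ± 0.21 (adjusted p = 0.0153, edgeR), and read 369, 334.5 and 283 RPKM after 18 h. Ndufv2, an iron-sulfur core subunit of complex I, went from 125, 97.4 and 121 RPKM to 69.0, 76.5 and 73.3 RPKM, a log2 fold change of -0.65 ± 0.21 (adjusted p = 0.0392, edgeR). None of the 3 passed without the control of experiment 2 (adjusted p = 0.0824, 0.107 and 0.054) or without the block (adjusted p = 0.119, 0.0723 and 0.119).

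Between 1 h and 18 h of CPA, 30 members were higher in mRNA-seq and 0 lower with edgeR, where 33.8% of all genes were higher and 5.77% lower. At an unadjusted p under 0.05, 37 were higher and 0 lower, where 2814 and 509 of all 6929 genes were. DESeq2 gave 6 higher and 6 lower, where it called 11.7% of all genes higher and 11.9% lower. The 30 comprised 15 genes of complex I, 1 of complex II, 6 of complex III, 5 of complex IV and 3 of complex V. The log2 fold changes of Cox6a2 (2.78 ± 0.35), Uqcrq (1.91 ± 0.25) and Atp5g1 (1.74 ± 0.25) were the largest. In footprints 23 were higher and 0 lower, where 18.2% of all genes were higher and 5.41% lower. At an unadjusted p under 0.05, 35 footprint values were higher and 0 lower, where 1823 and 548 of all 6929 genes were. DESeq2 gave 9 higher and 3 lower, where it called 6.48% of all genes higher and 7.37% lower.

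The footprint rises from 1 h to 18 h were again led by Cox6a2 (2.96), Uqcrq (1.97 ± 0.17) and Atp5g1 (1.82 ± 0.19 on the log2 scale). Atp5g2 rose by 1.16 ± 0.21 between these times, and its footprints after 1 h (199.5, 209 and 213.5 RPKM) were below every control value. Complex IV gave 7 calls of 12 in this comparison. They included Cox4i1, a large nuclear subunit of the complex, whose footprints were 528, 577 and 565 RPKM in control, 400, 435 and 401.5 RPKM after 1 h and 474, 666 and 582 RPKM after 18 h (0.48 between 1 h and 18 h, adjusted p = 0.0439, edgeR). Cox7a2l, the supercomplex factor, rose by 1.02 (adjusted p = 0.000432, edgeR). Both comparisons with 18 h use the same 18 h libraries and so are not independent.

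A change in ribosome occupancy was tested as the difference between the footprint change and the mRNA change. At 18 h against control 0 members passed with edgeR, where 0.476% of all genes did. At an unadjusted p under 0.05 there were 8, and DESeq2 called Uqcr10 and Uqcr11. Uqcr10 had the largest occupancy difference among members, 1.27 ± 0.34 on the log2 scale (adjusted p = 0.0632, edgeR). It passed under TMM scaling (1.29, adjusted p = 0.0294) and with DESeq2 (1.30, adjusted p = 0.00579). Uqcr11 was at 0.96 ± 0.32 (adjusted p = 0.240, edgeR; 0.0240 with DESeq2). Among the lower values were Ndufs1 (-1.13 ± 0.40), Ndufv2 (-0.78 ± 0.34), Sdha (-0.74 ± 0.31) and Atp5a1 (-0.60 ± 0.29), all catalytic or core proteins with long transcripts, none past the adjusted threshold.

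At 1 h against control 0 members passed for occupancy, where 0.0866% of all genes did. The unadjusted count was 1 (Uqcr11, 0.92 ± 0.31), against 493 of all 6929 genes, and DESeq2 gave 0. From 1 h to 18 h 0 members passed, where 0.0722% of all genes did. The unadjusted count was 3 (Uqcr10, Sdha and Atp5e), against 415 of all 6929 genes, and DESeq2 gave 0. The median occupancy change of members was 0.09 at 18 h, 0.16 at 1 h and -0.08 between the times, against 0.05, 0.16 and -0.11 for all genes.

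Occupancy change at 18 h went with transcript length among the members. Respiratory chain transcripts are short, with a median of 735 nt (338 to 2859 nt) against 2850 nt for all genes, and 79 of 80 were shorter than the median gene. The Spearman correlation of length with the occupancy change was -0.444 over the 80 members and 0.126 over all 6929 genes. The points share the same libraries and are not independent. The 52 members under 1000 nt had a median change of 0.12 and the 28 longer ones -0.18, while for all genes the medians were 0.16 and 0.03. The correlation of length with the mRNA change at 18 h was 0.233 over members and -0.306 over all genes. With an offset for transcript length in the edgeR model, 3 members were higher and 25 lower in mRNA-seq and 5 were higher and 25 lower in footprints. Of all genes, 16.1% were higher and 14.4% lower in mRNA-seq with that offset, and 9.22% and 14.8% in footprints.

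**Figure D5:**
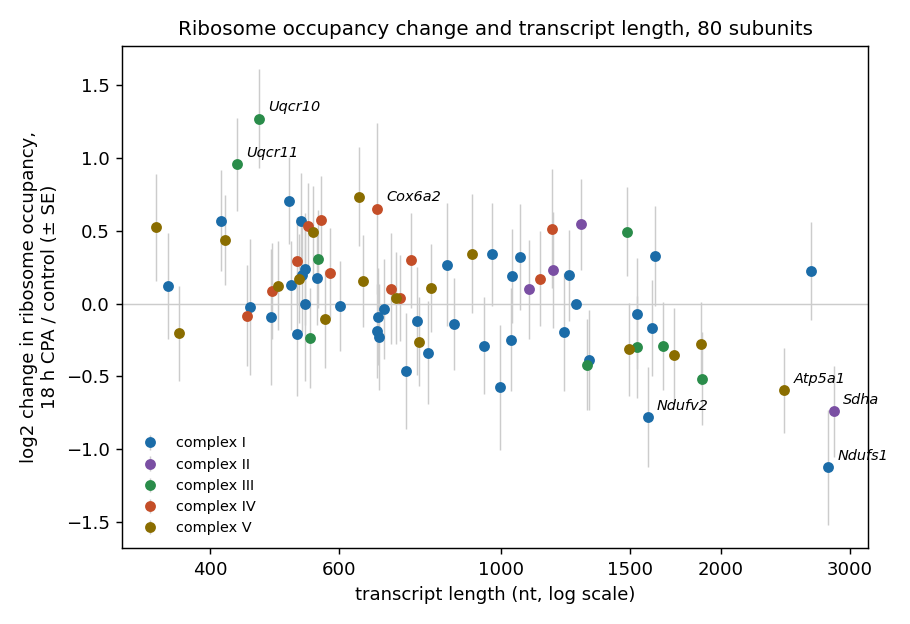
Log2 change in ribosome occupancy after 18 h of CPA against control (± SE) by transcript length in nt (log axis) for the 80 subunits, coloured by complex. Uqcr10 (1.27) and Uqcr11 (0.96) lie at the short end, and Ndufs1 (-1.13), Sdha (-0.74) and Atp5a1 (-0.60) at the long end.

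The 5 listed subunits that missed reads in some library were mostly tissue-restricted forms. Cox7a1, the heart and muscle partner of Cox7a2, had reads in 14 libraries, Ndufa4l2 in 12, Cox6b2 (testis) in 7, Cox7b2 in 6 and Cox8b in 4. Cox7a1 gave 5, 10 and 7 footprints in control, 2, 2 and 2 after 1 h and 0, 0 and 0 after 18 h. Its mRNA-seq reads were 1, 23 and 29 in control and 0, 25 and 10 after 18 h. Cox7a1 was near the limit of detection and was not tested, since it lacked reads in some libraries. The muscle form Cox6a2 was also near that limit in control (7, 5 and 10 footprints) but had reads in every library. No transcript was listed for Cox4i2, Cox8c, Ndufb1 or Ndufb4b. Ndufb4 and Ndufb4c share most of their sequence (98.7% and 92.4% of their transcripts) and their reads could not be told apart.

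Genes around the chain gave further context, from lists chosen with earlier results of these data known. Cytochrome c, Cycs, which carries electrons from complex III to IV, rose by 1.35 ± 0.26 in mRNA-seq (adjusted p = 5.89e-06, edgeR) and by 1.25 ± 0.19 in footprints (adjusted p = 3.58e-08, edgeR), and by 1.00 and 0.88 under TMM scaling. Of 46 assembly factors, 32 were tested. In mRNA-seq 10 were higher and 0 lower (median 0.49) and 14 higher and 0 lower in footprints (median 0.91), where 27% and 25.6% of all genes were higher. Under TMM scaling the counts were 4 higher and 1 lower in mRNA-seq and 3 higher and 0 lower in footprints, where 16.3% and 11.9% of all genes were higher. They included Cox18 (1.85 ± 0.45) and Cox10, the haem-modifying enzyme for complex IV (1.50 ± 0.37), in mRNA-seq, and Cox19 (1.54 ± 0.39) and Cox14 (1.02 ± 0.24) in footprints.

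Of the 14 citric acid cycle genes 2 were higher in mRNA-seq, Suclg1 (1.13 ± 0.28) and citrate synthase Cs (0.75 ± 0.28). In footprints 1 was higher, Suclg1 (0.59 ± 0.22), and 1 lower, the fumarase gene Fh1 (-0.73 ± 0.21). Under TMM scaling 1 was higher and 1 lower in mRNA-seq, and 0 were higher and 3 lower in footprints. The shares of all genes called are those given for the assembly factors, with 7.89% and 6.25% lower with library totals and 16% and 12.2% lower under TMM scaling. Of 13 regulators of mitochondrial biogenesis, 4 had reads in all libraries. Twnk, the helicase of mitochondrial DNA, rose in mRNA-seq (1.05 ± 0.31, and 0.67 under TMM scaling). Gabpa passed as higher in footprints with library totals (2.31 ± 0.69) but not under TMM scaling (1.95, adjusted p = 0.0695, edgeR), and reads from the stretch it shares with Atp5j cannot be told apart. Tfam differed by 0.77 ± 0.38 in mRNA-seq (adjusted p = 0.102, edgeR). Over the same 18 h, 6 of 7 beta cell markers fell in each assay, with Ins2 at -1.96 ± 0.44 in mRNA-seq and Pdx1 at -1.46 ± 0.25. With totals without Ins1, Ins2 and Lars2, the member medians at 18 h were 0.10 in mRNA-seq and 0.14 in footprints. With full totals they were 0.34 and 0.32. The medians of all genes were 0.13 and 0.24 with the reduced totals. Any further part of the marker fall in the subunit values was not tested.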

How the data were processed

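MIN6 mRNA-seq and Ribo-seq libraries (9 each) were used. The authors deposited, for each experiment, a table of read counts and RPKM per RefSeq transcript. The counts are deposited raw, the RPKM values were scaled by the authors to transcript length and total reads, and the submitters' processing notes name Bowtie2 and GRCm38. Whether counting used strand is not given in the sources used here. The column of transcript length is also deposited.

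Of 30741 listed transcripts, 10163 had a read in all 18 libraries and were summed to 6929 genes. RefSeq records matched 30232 transcripts with version and 478 without version, and 31 did not match. Genes were tested with edgeR 4.0.16 (R 4.3.3, quasi-likelihood, library totals, experiment as block, Benjamini-Hochberg adjusted p under 0.05). Occupancy was the assay by treatment interaction. The labels call the replicate number a batch, and deviations of same-numbered libraries correlated on average at 0.545 in mRNA-seq (0.109 to 0.736, 9 pairs) and 0.138 in Ribo-seq (0.0794 to 0.188). P-values measure the spread between these samples. Alternatives were no block, TMM, DESeq2 1.42.0, no filter, totals without Ins1, Ins2 and Lars2, a length offset, 1 transcript per gene and left-out experiments or controls. The test script was tested on simulated data. Shared sequence was sought with BLAST 2.17.0 (30 nt or longer, 95% identity).

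Genes were named by a rule: per comparison the 3 largest called changes each way, members called for occupancy, the highest control mRNA level per complex, and a list of isoform and core genes. Other members given with values (such as Cox6a1, Ndufa5, Ndufs1, Ndufs4, Uqcr10, Uqcrb, Uqcrc1 and Atp5j) fall outside it and were chosen after their values were seen. Members and lists were chosen with earlier results of these data known.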

Additional observations from a re-analysis of the deposited data

How the results depend on the processing

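The direction of Cox6a2, Uqcrq and Atp5g1 at 18 h was upward in both assays under each alternative run. Counts of members moved more. For 18 h against control in mRNA-seq (15 higher, 1 lower), the counts were 1 and 0 without the block, 5 and 18 with TMM and 3 and 17 with DESeq2. They were 3 and 25 with the length offset and 13 and 15 with totals without Ins1, Ins2 and Lars2. Of all genes, 11.2% were higher and 13.9% lower with DESeq2, and 21.2% and 12.4% with those totals. The shares for the other runs at 18 h are given above. In footprints (22 and 2) the counts were 7 and 13 with TMM, 5 and 8 with DESeq2, 12 and 7 with those totals and 5 and 25 with the length offset. There 0 were lower without the block and 1 was lower with no filter. Of all genes, 6.86% were higher and 8.47% lower with DESeq2, 17.5% and 8.57% with those totals, and 2.67% lower with no filter.

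From 1 h to 18 h in mRNA-seq (30 and 0), 1 was higher without the block, as were 1.57% of all genes. The counts were 8 and 10 with TMM, 6 and 6 with DESeq2, 11 and 8 with those totals and 7 and 14 with the length offset. Of all genes, 15.3% were higher and 15.8% lower with TMM, 17.6% and 13.3% with those totals, and 15.5% and 12.7% with the length offset. In footprints (23 and 0) the member counts were 11 and 3 with TMM, 9 and 3 with DESeq2, 13 and 3 with those totals and 4 and 13 with the length offset. Of all genes, 8.76% were higher and 10.3% lower with TMM, 12.1% and 7.59% with those totals, and 7.95% and 10.1% with the length offset. At 1 h in footprints (1 and 2), 0 and 0 remained without the block and 0 and 1 with no filter. There 4 were lower with TMM and with the length offset, and 0 were higher with DESeq2. Of all genes, 2.02% were higher and 1.14% lower without the block, and 1.27% and 0.878% with no filter. With TMM 3.72% and with the length offset 5.69% were lower, and with DESeq2 1.95% were higher. Occupancy at 18 h gave 1 higher with TMM, 1 with those totals and 2 with DESeq2, where 0.303%, 0.318% and 0.491% of all genes were higher. No other call count moved by over 1.5 times under the block change.

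Leaving out an experiment or the control of experiment 2 gave, in mRNA-seq, 3 to 13 higher and 0 to 1 lower at 18 h, 0 to 1 lower at 1 h, and 8 to 26 higher and 0 to 2 lower between the times. In footprints it gave 10 to 19 higher and 0 to 2 lower at 18 h, 0 higher and 0 to 1 lower at 1 h, and 15 to 20 higher and 0 to 1 lower between the times. Occupancy at 1 h gave 0 to 1 higher, Cox7b without experiment 3.

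Cox7b in mRNA-seq at 18 h ranged from -1.05 to 0.25 over the left-out libraries, and its sign turned to 0.0562 without experiment 2 and 0.25 without its control. With the length offset the footprint sign turned for Atp5g2 (-0.0289) and Ndufa4 (-0.162) at 18 h, and for Cox4i1 (-0.147) and Cox8a (-0.0485) between the times. The causes were not tested. Ribo-seq depth, from 168129 reads, limits the least abundant members, the lowest, Cox6a2, with 2 reads in a library.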
